A study of Rattus norvegicus with 24 samples.

Results

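The genes described are 7 enzymes and a regulator of cholesterol synthesis, named by symbol and followed through kidney RNA-seq libraries of rats. Of the 8 genes (Hmgcs1, Idi1, Sqle, Insig1, Cyp51, Fdft1, Dhcr7 and Lss), 5 could be linked to a row of the count table, and all 5 were among the 14212 genes tested of 32883 in the table. Insig1, Fdft1 and Dhcr7 could not be linked and were not analysed here. The count table names genes by Ensembl identifier only, and a symbol was linked where its fold changes and mean level in a gene table of the study matched those refitted from the counts. A gene enters that table only with a p below 0.01, before adjustment, in at least 1 comparison of these same rats. Every linked gene thus had to differ somewhere, and counts over linked genes are descriptions. Insig1, Fdft1 and Dhcr7 are absent from that table, and whether they were unchanged or not tested there is not shown. Counts out of 5 members thus leave out members without such a p there. The table lists Hmgcs1, Idi1 and Sqle for BN-P18 against BN-NP and for BN-P18 against CD-P18, Cyp51 for these and for CD-P18 against CD-NP, and Lss only for BN-NP against CD-NP.

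The libraries came from kidney cross-sections, holding cortex and medulla, of female rats whose age the labels give as 2 months. The study obtained its rats at that age before breeding, and the age at tissue collection is not stated. CD rats are outbred Sprague Dawley and BN rats are inbred Brown Norway, the strain in which the study models a complicated pregnancy. Each strain was taken non-pregnant (NP) or at day 18 of pregnancy (P18), which gave CD-NP, CD-P18, BN-NP and BN-P18 with 3 rats in each of the 4 groups. The labels name no drug and no altered allele in any group, and the groups differ by strain and pregnancy. Gene counts ran from 8274159 to 11879451 per library, and a member had between 107 and 905 counts in a library. Levels are CPM, the counts of a gene per 1000000 counts of its library, after scaling by the trimmed mean of M values (TMM).

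Cells make cholesterol from acetyl-CoA through mevalonate, isoprenoid units, squalene and lanosterol, and they also take it up from blood lipoproteins. The transcription factor SREBP-2, the product of Srebf2, raises the genes of both routes when cholesterol in the endoplasmic reticulum is low. INSIG proteins hold it back when sterols are plentiful. In the kidney, cholesterol is a membrane component of tubule and glomerular cells.

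Because Hmgcs1, Idi1, Sqle and Cyp51 moved together, the promoter letters of the members are shown first. The RefSeq promoter table (build GRCr8, 250 bases before to 50 bases after each gene's start) held 6 of the 8 members and had no entry for Sqle or Fdft1. Both strands were searched for the NF-Y box (CCAAT), which was present in 4 of 6 members and in 37.5% of the 33469 promoters of the table. The Sp1 box (GGGCGG) was present in 5 of 6 members and in 33.1% of all promoters, and the E-box (CACGTG) in 1 of 6, Insig1, and in 6.42% of all. The 9 letters of the sterol regulatory element searched (TCACNCCAC) were in 0 of 6 members and in 1.12% of all promoters, which says only that these letters are not in these windows. The NF-Y boxes of the linked members all lay on the opposite strand and read ATTGG on the strand of the gene. They are printed 5′ to 3′ on the strand of the gene with the box in capitals, and Cyp51, which had none, is represented by its Sp1 box upstream of the start (read CCGCCC). No NF-Y box of a member overlapped another motif searched. The distance is that of the first capital from the start.
Hmgcs1, 188 bases upstream, chr2:53382104-53382132, plus strand: cattttcctcccATTGGcagagagtgggt
Hmgcs1, 133 bases upstream, chr2:53382159-53382187, plus strand: ctgagtccggtgATTGGctgagatagctg
Idi1, 66 bases upstream, chr17:66547574-66547602, minus strand: tgcctccagctgATTGGtgagcccgggca
Idi1, 35 bases upstream, chr17:66547543-66547571, minus strand: gtcgaagatgccATTGGctggcgaccgac
Lss, 82 bases upstream, chr20:12118296-12118324, minus strand: ggtgatgctctgATTGGccgcgctcgcat
Cyp51, 127 bases upstream, chr4:30991554-30991583, plus strand: acgcagaaagccCCGCCCcgtctgtgacgt
Of the linked members in the promoter table, Cyp51 had no NF-Y box and Lss had 1, and Sqle had no entry. Whether these letters had a part in the RNA levels was not tested. A match of letters is not a bound site.

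The question for each member was whether its kidney RNA changed with pregnancy in either strain, and whether the strains changed differently. In BN rats Hmgcs1, Sqle and Cyp51 rose with pregnancy by 1.97-fold, 1.53-fold and 1.55-fold. In CD rats Hmgcs1, Idi1, Sqle and Cyp51 stood at 0.84, 0.68, 0.77 and 0.73 of their NP level at P18, and none of these differences passed the test. The pregnancy change of these 4 genes differed between the strains, and all 4 were higher in BN-P18 than in CD-P18. Lss followed another pattern and differed between the strains before pregnancy.

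Hmgcs1 (ENSRNOG00000016552) encodes the cytosolic HMG-CoA synthase, which feeds the mevalonate pathway. Its level was 48.2, 49.4 and 46.7 CPM in the CD-NP rats and 40.8, 38.1 and 41.8 CPM in the CD-P18 rats. It was 31.5, 45.0 and 38.1 CPM in the BN-NP rats and 97.1, 81.7 and 46.6 CPM in the BN-P18 rats. BN-P18 replicates 1 and 2 stood far above all others, while replicate 3 lay just above the highest BN-NP rat and just below the lowest CD-NP rat. The rise in BN rats was 0.98 ± 0.20 on the log2 scale (SE, n = 3 per group; edgeR quasi-likelihood test, Benjamini-Hochberg adjusted p = 0.0468). The difference in CD rats was -0.26 ± 0.20 (edgeR adjusted p = 0.577), with groups that did not overlap.

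Idi1 (ENSRNOG00000016690) encodes isopentenyl-diphosphate isomerase, which interconverts the isoprenoid building units. Its level was 19.0, 23.8 and 23.9 CPM in CD-NP, 18.3, 11.8 and 14.8 CPM in CD-P18, 20.4, 26.2 and 20.9 CPM in BN-NP, and 38.7, 52.4 and 25.3 CPM in BN-P18. BN-P18 replicate 3 overlapped the BN-NP range, and the other two exceeded every other rat. The difference with pregnancy in BN rats was 0.79 ± 0.22 on the log2 scale and missed the threshold (edgeR adjusted p = 0.151), but passed in DESeq2 (adjusted p = 0.0337), without a filter on low counts (edgeR adjusted p = 0.0148) and without BN-P18 replicate 3. That in CD rats was -0.56 ± 0.23 (edgeR adjusted p = 0.236). Idi1 had the largest difference of the members between the pregnant groups, 1.37 ± 0.23 or 2.58-fold higher in BN-P18 than in CD-P18 (edgeR adjusted p = 0.00241).

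Sqle (ENSRNOG00000009550) encodes squalene epoxidase, which makes the oxidosqualene that lanosterol synthase then closes into rings. The CD-NP rats had 19.5, 22.4 and 20.2 CPM and the CD-P18 rats 15.5, 14.2 and 17.7 CPM. The BN-NP rats had 17.5, 22.1 and 19.8 CPM and the BN-P18 rats 33.6, 33.6 and 23.5 CPM. All 3 BN-P18 rats lay above all 9 others, and all 3 CD-P18 rats lay below all CD-NP rats. The rise in BN rats was 0.61 ± 0.14 on the log2 scale (edgeR adjusted p = 0.0805), and the difference in CD rats was -0.39 ± 0.15 (edgeR adjusted p = 0.192).

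Cyp51 (ENSRNOG00000007234) encodes the cytochrome P450 that demethylates lanosterol. Its level was 31.1, 28.4 and 29.5 CPM in CD-NP and 20.7, 21.4 and 23.0 CPM in CD-P18, 2 ranges that did not overlap. It was 21.0, 30.3 and 27.5 CPM in BN-NP and 40.4, 49.5 and 31.8 CPM in BN-P18, again without overlap. The rise in BN rats was 0.63 ± 0.15 on the log2 scale (edgeR adjusted p = 0.0877). The difference in CD rats was -0.45 ± 0.16 and missed the threshold (edgeR adjusted p = 0.146), but it passed when only the CD libraries were fitted (edgeR adjusted p = 0.0413), without a filter on low counts (adjusted p = 0.0834) and without BN-P18 replicate 3 (adjusted p = 0.0903).

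Lss (ENSRNOG00000054549) encodes lanosterol synthase, the enzyme that closes the sterol rings. Its level was 15.9, 13.2 and 13.6 CPM in CD-NP, 16.1, 20.1 and 16.5 CPM in CD-P18, 19.8, 21.7 and 16.9 CPM in BN-NP, and 22.2, 24.4 and 19.0 CPM in BN-P18. The BN-NP rats lay above the CD-NP rats without overlap, by 0.45 ± 0.14 on the log2 scale or 1.36-fold (edgeR adjusted p = 0.0734). With pregnancy Lss differed by 0.30 ± 0.14 in CD rats (edgeR adjusted p = 0.285) and by 0.18 ± 0.13 in BN rats (edgeR adjusted p = 0.736). The difference between the pregnant groups was 0.32 ± 0.13 (edgeR adjusted p = 0.172). Without CD-NP replicate 2 or 3, or BN-NP replicate 1 or 2, the call of Lss between the NP groups was lost (highest edgeR adjusted p = 0.256), and with only the NP libraries fitted it stood at an adjusted p of 0.101.

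**Figure D1:**
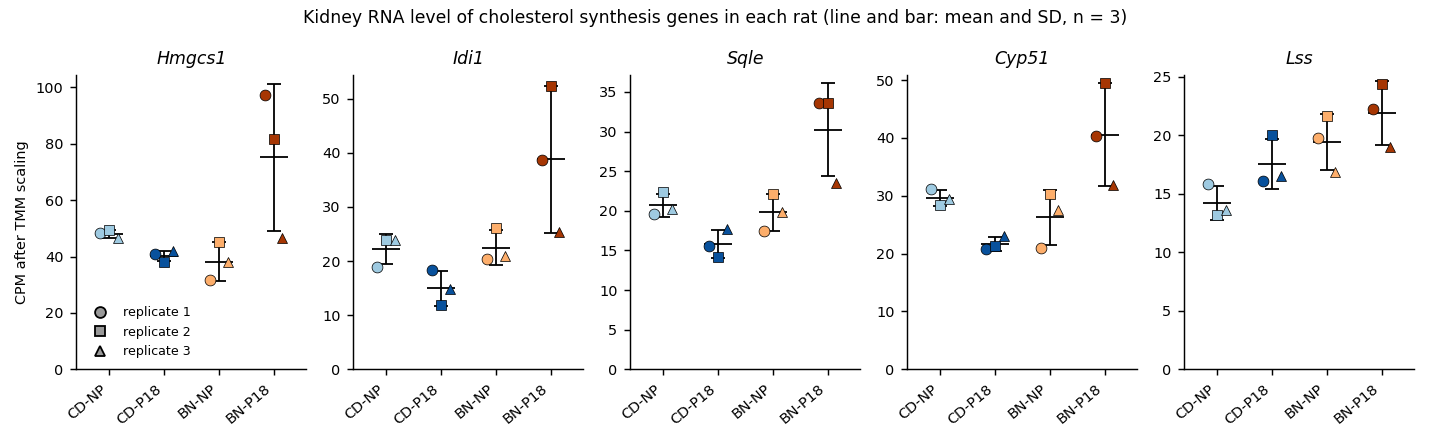
Level of Hmgcs1, Idi1, Sqle, Cyp51 and Lss in CPM after TMM scaling (y axis, a scale of its own per gene, from 0) in each of the 12 rats by group (x axis); symbols mark the replicate number, and the line with its bar is the mean and SD of 3 rats. In BN-P18, replicates 1 and 2 lie high and replicate 3 lowest for all 5 genes.

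For BN-P18 against BN-NP, 3 of the 5 linked members passed the thresholds (an adjusted p under 0.1, with the higher group more than 25% above the lower), all higher, where 0.823% of all genes tested and 3.83% of the tested genes with a symbol were called higher. For CD-P18 against CD-NP, 0 of 5 passed in edgeR and 0 in DESeq2, where 4.71% of all genes tested and 21.4% of those with a symbol were called in either direction. At an unadjusted p under 0.05, Idi1, Sqle and Cyp51 were lower in CD-P18 than in CD-NP, and Lss was higher, where 17.1% of all genes tested had such a p in either direction. The CD groups did not overlap for 5 of 5 members and the BN groups for 3 of 5, where 21.5% and 14.7% of all genes tested had groups without overlap. The median log2 fold change of the 5 members was 0.63 in BN rats and -0.39 in CD rats, against medians of 0.00020 and -0.0096 over all genes tested. These members entered the linked set through such comparisons, so the shares are given as a description.

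The calls in BN rats turned on single libraries. The count of members higher in BN-P18 than in BN-NP was 0 without BN-NP replicate 1 or BN-P18 replicate 2. It was 1 without CD-P18 replicate 1, CD-P18 replicate 2, BN-NP replicate 2, BN-NP replicate 3 or BN-P18 replicate 1, and 2 without CD-NP replicate 2 or CD-P18 replicate 3. It was 3 without CD-NP replicate 1 or 3, and 4, with Idi1, without BN-P18 replicate 3. With only the 6 BN libraries fitted, 0 members passed, at edgeR adjusted p = 0.131 for Hmgcs1, 0.145 for Sqle and 0.188 for Cyp51. All members kept a positive log2 fold change in BN rats in each of the 12 fits that left out a rat, with Hmgcs1 between 0.75 and 1.23 and Cyp51 between 0.46 and 0.78. The number of all genes called in this comparison moved too, from 199 with all rats to between 27 and 228 with 1 rat left out.

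The pregnancy change of 4 members differed between the strains by the test of the strain by pregnancy interaction, the change in BN rats minus the change in CD rats on the log2 scale. It was 1.23 ± 0.28 for Hmgcs1 (edgeR adjusted p = 0.0897), 1.35 ± 0.32 for Idi1 (adjusted p = 0.0994), 0.998 ± 0.21 for Sqle (adjusted p = 0.0555) and 1.08 ± 0.22 for Cyp51 (adjusted p = 0.0499). For Lss it was -0.12 ± 0.19 (adjusted p = 0.863). Over all genes tested 0.443% had a higher change in BN rats by this test, and 2.12% of those with a symbol. These 4 members thus had opposite signs in the strains, a positive change in BN rats and a negative one in CD rats. All 4 were linked through BN-P18 against BN-NP and against CD-P18, which share groups with this test, so the count is a description.

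The interaction calls also turned on single libraries. The count was 0 of 5 members without CD-NP replicate 2, CD-P18 replicate 1, CD-P18 replicate 2, BN-NP replicate 1 or BN-P18 replicate 2. It was 2, Sqle and Cyp51, without CD-NP replicate 3, CD-P18 replicate 3, BN-NP replicate 2, BN-NP replicate 3 or BN-P18 replicate 1. It stayed at 4 without CD-NP replicate 1 or BN-P18 replicate 3. The interaction of Cyp51 ranged from 0.91 to 1.23 and that of Idi1 from 1.07 to 1.58 over these fits.

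**Figure D2:**
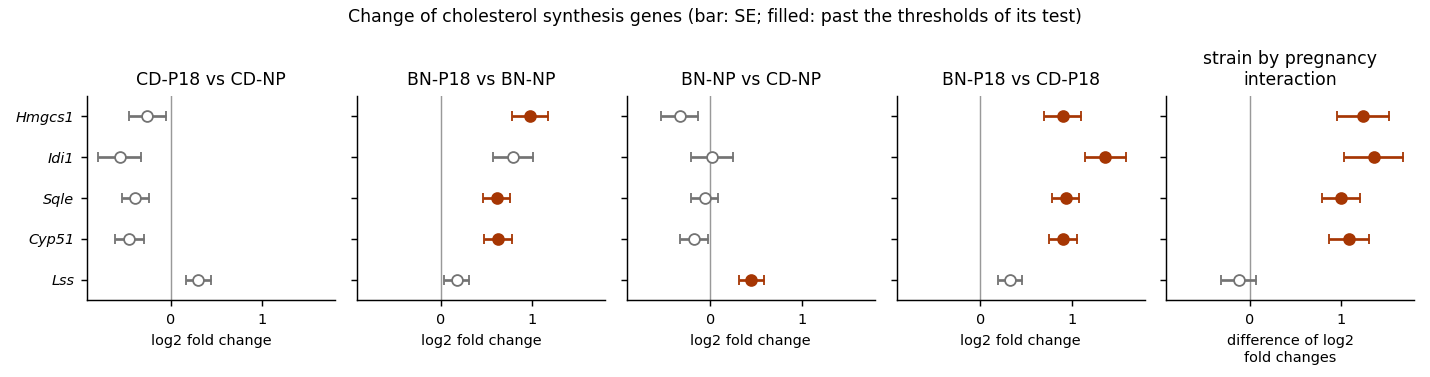
Log2 fold change of the 5 linked members (y axis) in the 4 comparisons and the difference of the pregnancy changes, BN minus CD (x axis, log2 scale); bars are the SE from the edgeR fit, n = 3 rats per group, and filled points passed the thresholds. Hmgcs1, Idi1, Sqle and Cyp51 lie left of 0 in CD rats and right of 0 in BN rats, and Lss does not.

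Between the pregnant groups 4 of the 5 members were called higher in BN rats. Hmgcs1 was 1.87-fold, Idi1 2.58-fold, Sqle 1.91-fold and Cyp51 1.87-fold higher in BN-P18 than in CD-P18 (edgeR adjusted p = 0.0139, 0.00241, 0.00144 and 0.00287). For all 4 genes every BN-P18 rat lay above every CD-P18 rat, a separation that 26.5% of all genes tested had. The 4 calls were present in all 12 fits that left out a rat, in edgeR under each scaling and filter tried, in DESeq2 and under the stricter thresholds. Among all genes tested 4.9% were called higher in BN-P18, and 20.7% among those with a symbol. All 4 genes were linked through this comparison among others, so the count and its recurrence over the fits are descriptions. The comparisons share groups, so the BN-P18 rats enter both this difference and the rise in BN rats.

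Between the non-pregnant groups these 4 genes differed by -0.33 ± 0.20 for Hmgcs1, 0.02 ± 0.23 for Idi1, -0.06 ± 0.15 for Sqle and -0.18 ± 0.15 for Cyp51 on the log2 scale, BN-NP minus CD-NP, and none passed (edgeR adjusted p from 0.385 to 0.981). Of the members 1 of 5, Lss, was called, where 3.83% of all genes tested and 16.4% of those with a symbol were called higher in BN-NP. Lss was linked through this comparison only, so its call is a description. The NP groups did not overlap for 2 of 5, Hmgcs1 and Lss, as for 24.4% of all genes tested. By mean level, the order of the groups was BN-P18, CD-NP, CD-P18 and BN-NP for Hmgcs1, and BN-P18, BN-NP, CD-NP and CD-P18 for Idi1. It was BN-P18, CD-NP, BN-NP and CD-P18 for Sqle and Cyp51, and BN-P18, BN-NP, CD-P18 and CD-NP for Lss. Among neighbours in these orders, CD-NP and BN-NP overlapped for Idi1, Sqle and Cyp51, BN-NP and CD-P18 for Hmgcs1, Sqle, Cyp51 and Lss, the BN groups for Idi1 and Lss, and BN-P18 and CD-NP for Hmgcs1.

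The rats of the BN-P18 group were unequal for all members at once. BN-P18 replicate 3 lay below the mean log2 level of its group for 5 of 5 members, by 0.41 on average, while replicates 1 and 2 lay above it for 5 of 5, by 0.14 and 0.27. Its deviation was -0.62 for Hmgcs1 and -0.19 for Lss. BN-NP replicate 2 lay above its group mean for 5 of 5 members, by 0.21 on average. The CD groups were tighter, with mean deviations between -0.07 and 0.05. After subtracting the group means, Pearson's r between pairs of members over the 12 libraries had a median of 0.68 over 10 pairs, from 0.20 to 0.90. Without Lss the lowest r within groups was 0.65, that of Idi1 with Cyp51, and the highest was that of Hmgcs1 with Sqle. The points share their library and its scaling factor.

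**Figure D3:**
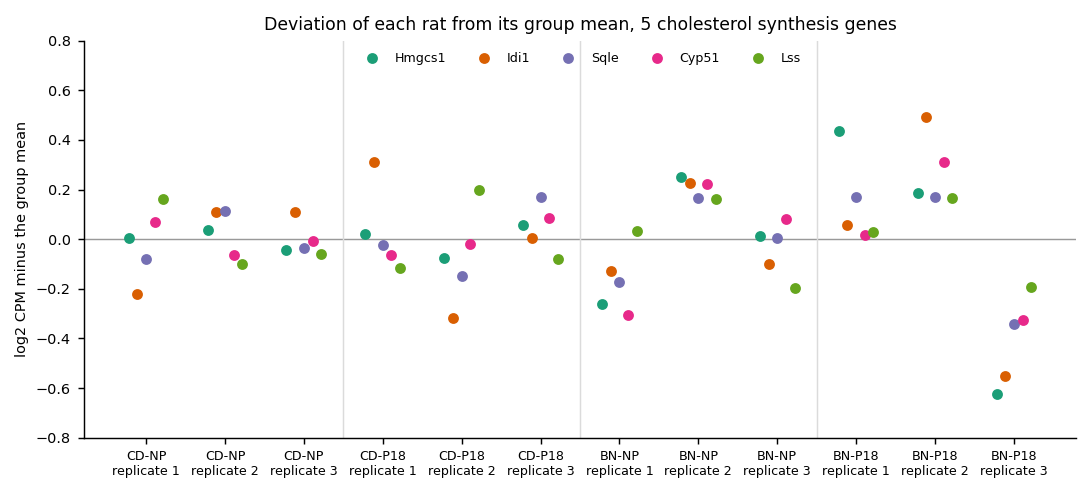
Log2 CPM of each of the 5 members minus the mean of its group (y axis) in each of the 12 libraries (x axis); each point is 1 gene in 1 rat. All 5 genes lie below 0 in BN-P18 replicate 3 and above 0 in BN-P18 replicates 1 and 2 and BN-NP replicate 2.

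The other synthesis genes described were Msmo1, Hsd17b7 and Sc5d, the 3 with a linked row of 14 listed beside the members. For BN-P18 against CD-P18, 2 of these 3 were called higher and 0 lower. All 3 were linked through this comparison only, so the count is a description. Over all genes tested 4.9% were called higher there, and 20.7% of those with a symbol. Msmo1, the sterol C-methyl oxidase that acts after Cyp51, was 1.60-fold higher in BN-P18 than in CD-P18 (edgeR adjusted p = 0.0222; lost without BN-P18 replicate 2). Hsd17b7, a ketoreductase of the same demethylation steps, was 2.19-fold higher (edgeR adjusted p = 0.00111). Their differences with pregnancy were 0.43 ± 0.16 and 0.45 ± 0.16 in BN rats and -0.21 ± 0.17 and -0.41 ± 0.18 in CD rats on the log2 scale, and none passed. Without BN-P18 replicate 3 the difference of Msmo1 in BN rats and its interaction passed. The interaction of Msmo1 was 0.64 ± 0.23 (edgeR adjusted p = 0.271) and that of Hsd17b7 0.86 ± 0.24 (edgeR adjusted p = 0.16, and 0.0775 with the replicate block). Sc5d, a sterol desaturase near the end of the pathway, stood at 1.20-fold in BN-P18 against CD-P18 (edgeR adjusted p = 0.0491), under the fold threshold.

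Of the regulators, Srebf2, the gene of SREBP-2, had 147, 176 and 140 CPM in BN-P18 and 119, 119 and 126 CPM in CD-P18. It was 1.27-fold higher in BN-P18 (edgeR adjusted p = 0.0314; lost without CD-P18 replicate 1 or 2 or BN-P18 replicate 2). Its change with pregnancy was 0.28 ± 0.09 in BN rats (edgeR adjusted p = 0.245) and -0.25 ± 0.09 in CD rats (edgeR adjusted p = 0.16), and the interaction of 0.53 ± 0.13 just missed the threshold (edgeR adjusted p = 0.106). The interaction of Srebf2 passed under upper-quartile scaling, DESeq2, no filter, the 1 CPM filter and the replicate block, with adjusted p between 0.0200 and 0.0949, and without CD-NP replicate 1 or BN-P18 replicate 3. Srebf1, whose products mainly drive fatty acid synthesis, had 86.3, 73.7 and 67.5 CPM in CD-NP and 51.5, 54.0 and 42.1 CPM in BN-NP. It was thus lower in BN-NP, at 0.65 of the CD-NP level (edgeR adjusted p = 0.0129). With pregnancy it differed by -0.15 ± 0.13 in CD rats and 0.19 ± 0.13 in BN rats, between the pregnant groups by -0.29 ± 0.13, and by interaction by 0.34 ± 0.18, none past the threshold with all rats, although the difference between the pregnant groups passed without BN-P18 replicate 2. Of the 7 listed regulators, 2 had a linked row.

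Of 14 listed genes of uptake and lysosomal release 4 had a linked row. All 4 were linked through BN-NP against CD-NP only, so their calls there are a description. In that comparison 3.83% of all genes tested and 16.4% of those with a symbol were called higher. Vldlr, a lipoprotein receptor, was 1.33-fold higher in BN-NP than in CD-NP (edgeR adjusted p = 0.0385) and Lipa, the lysosomal acid lipase, 1.26-fold higher (edgeR adjusted p = 0.0451). Both calls were lost without BN-NP replicate 2 and CD-NP replicate 3 in turn, that of Vldlr also without CD-NP replicate 2 and that of Lipa without BN-NP replicate 1. Npc2, a lysosomal cholesterol carrier, at 1.24-fold (adjusted p = 0.0504), and Lrp1, another lipoprotein receptor, at 1.27-fold (adjusted p = 0.116), did not pass both thresholds there in edgeR, while DESeq2 called 3 of the 4 genes.

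**Figure D4:**
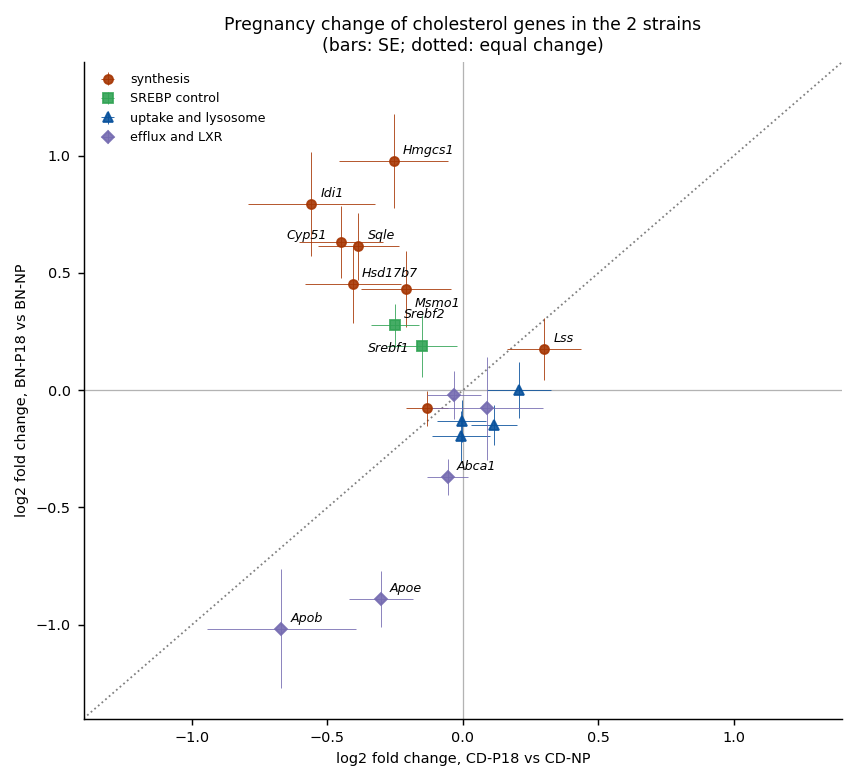
Log2 fold change with pregnancy in BN rats (y axis) against that in CD rats (x axis) for 19 linked genes of cholesterol synthesis, control, uptake and efflux; bars are SE from the edgeR fit, n = 3 rats per group, the dotted line marks equal change, and 7 genes near the origin carry no name. Hmgcs1, Idi1, Sqle, Cyp51, Msmo1, Hsd17b7, Srebf1 and Srebf2 lie up and left of the origin, while Lss lies near the dotted line.

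Genes outside the lists with a level most like that of the members were found by Pearson's r over the 12 libraries with the mean standardized log2 CPM of the 5 linked members. The 10 highest ran from Ola1 (r = 0.918), an ATPase, through Gprc5a (0.914), Ece1 (0.887), Gpd1l (0.884), Tspan12, Hhex, Egr2, Gfpt1 and Dip2a to Rgs2 (0.85). Subtracting the group means left r between 0.51 and 0.79 for these 10. All 10 had a symbol, which only linked genes have and which was not required. Among the listed genes, Msmo1 (r = 0.953) ranked first over all genes tested besides the members, Hsd17b7 (0.825) at rank 21 and Srebf2 (0.765) at rank 70. The points share their libraries, and the groups contribute to each r.

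Markers of kidney cells were present. The summed level of the 3 linked of 9 proximal tubule markers was 1859 to 3676 CPM in a library. No marker of the adrenal cortex or of adipocytes had a linked row, and neither tissue was analysed here. In bulk tissue, more cells of a type and more RNA per cell cannot be told apart. The 4 linked of 6 macrophage markers summed in CD rats to between 80.0 and 95.7 CPM before and between 114 and 142 CPM at P18. In BN rats the sums lay between 79.7 and 85.7 CPM and between 104 and 109 CPM, so they were higher at P18 in both strains. Of these 4 markers 4 were called higher with pregnancy in CD rats and 1, C1qa, in BN rats. All 4 were linked through CD-P18 against CD-NP, and Csf1r and C1qa also through BN-P18 against BN-NP, so both counts are descriptions. Over all genes tested 4.71% were called in CD rats in either direction, and 0.823% were called higher in BN rats. Among genes with a symbol these shares were 21.4% and 3.83%. Proximal tubule markers summed in CD rats to between 2866 and 3676 CPM before and between 2129 and 2754 CPM at P18. In BN rats they summed to between 2407 and 2969 CPM and between 1859 and 2499 CPM. Slc34a1 made up most of each sum, with a mean of 2716 CPM in CD-NP against 183 for Slc5a2 and 311 for Slc22a6. With pregnancy Slc34a1, Slc5a2 and Slc22a6 differed by -0.47, -0.10 and 0.11 in CD rats on the log2 scale. In BN rats these 3 differed by -0.35, -0.64 and -0.29. The part of cell composition in the members' results was not tested.

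Some linked genes of the circadian clock also changed differently in the strains by the interaction test. The hour of tissue collection is not given in the sources used here. Of 7 linked of 13 clock genes, 4 were called higher and 3 lower with pregnancy in CD rats, and 0 in BN rats by edgeR, by DESeq2 or at an unadjusted p under 0.05. All 7 were linked through CD-P18 against CD-NP and none through BN-P18 against BN-NP, so linking favoured calls in CD rats and the counts are descriptions. Over all genes tested 4.71% were called in CD rats in either direction, and 21.4% of those with a symbol. Npas2, an activator of the clock, had 20.1, 11.1 and 9.97 CPM in CD-NP and 3.26, 3.42 and 3.16 CPM in CD-P18, against 9.57, 8.15 and 8.43 CPM in BN-NP and 11.2, 13.6 and 11.6 CPM in BN-P18. Nr1d1, a repressor of the clock, had 258, 281 and 309 CPM in CD-NP, 79.7, 87.9 and 109 CPM in CD-P18, 233, 170 and 153 CPM in BN-NP, and 210, 202 and 161 CPM in BN-P18. The interaction was 2.54 ± 0.33 on the log2 scale for Npas2 and 1.66 ± 0.22 for Nr1d1 (edgeR adjusted p = 0.00698 for both), -1.76 ± 0.28 for Cry1 (adjusted p = 0.0204) and -1.18 ± 0.25 for Per2 (adjusted p = 0.0562). Whether the phase of the clock had a part in the members' results was not tested.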

How the data were processed

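RNA of 12 rat kidneys was sequenced. Per the labels, the libraries were stranded and depleted of ribosomal RNA. Per the study's methods and the submitters' processing notes, the authors trimmed reads with Trimmomatic, aligned them to Rnor_6.0 with STAR 2.5.2 and deposited counts per gene from HTSeq 0.6.1. The strand setting and annotation release are not given in the sources used here. Of all entries, 72.5 to 75.6% per library stood on lines that name no gene and stayed out of library sizes.

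Symbols were linked to identifiers as described (tolerance 0.006 on log2 fold change and log CPM, next identifier at least 0.002 farther); 3057 of 3064 symbols had 1 match. The fold changes and p-values of that study table served for linking only. The members and gene lists were chosen with earlier results of these data known. R 4.3.3 with edgeR 4.0.16 was used with TMM scaling, filterByExpr and 1 quasi-likelihood fit over 12 libraries and 4 groups without covariates. The interaction needed an adjusted p under 0.1. SE is the log2 fold change over the root of F. DESeq2 1.42.0 was an alternative. The fit was tested on simulated data. Log2 CPM used a prior count of 2. No libraries held identical counts.

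Named genes were the members, each gene of the 7 cholesterol and lipid lists past a threshold, Srebf1 and Srebf2, at most 4 genes of each other list, and the 10 most similar genes outside the lists. Some genes are not reported here and stayed out of the lists and their counts. The labels give replicate numbers, which the main fit did not use as pairs. The bisulfite libraries were not used here, since the reference table gives gene positions on GRCr8 and the CpGs are on Rnor_6.0; the planned methylation comparison was not run. P-values of the main fit weigh a difference against the spread between rats within groups. That spread was estimated over all 12 libraries and not for each group alone.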

Additional observations from a re-analysis of the deposited data

Results flagged for a closer look

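The pregnancy change differed between the strains, by the test of the interaction in edgeR (adjusted p under 0.1), for 4 of the cholesterol genes described. The difference of the log2 fold changes, BN minus CD, was 1.23 for Hmgcs1, 1.35 for Idi1, 0.998 for Sqle and 1.08 for Cyp51 (edgeR adjusted p = 0.0897, 0.0994, 0.0555 and 0.0499). In BN rats Hmgcs1, Sqle and Cyp51 rose and Idi1 had a positive difference that did not pass the test, while in CD rats the 4 differences were negative and did not pass. With 3 rats per group, no group was large enough for a search for single outlying rats.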

How the results depend on the processing

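The 4 members higher in BN-P18 than in CD-P18 stayed at 4 under each alternative. For the comparisons in the order CD-P18 against CD-NP, BN-P18 against BN-NP, BN-NP against CD-NP, BN-P18 against CD-P18 and interaction, the stricter thresholds (adjusted p under 0.05, fold change over 1.5) left 225, 70, 496, 616 and 64 of 669, 199, 1191, 1365 and 134 genes, and of the members 1 higher in BN-P18 than in BN-NP (Hmgcs1), 0 between NP groups and 1 by interaction (Cyp51). Without a filter 352 genes were called in BN rats, 329 by interaction, and 1 member (Cyp51, lower) in CD rats. With only the libraries compared, 128 genes and 0 members were called in BN rats, 1 member (Cyp51) in CD rats and 0 between NP groups. DESeq2 called 330 interaction genes. Upper-quartile scaling called 72 interaction genes higher and 52 lower, against 63 and 71 with TMM.

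Leaving out 1 rat gave 327 to 715, 27 to 228, 657 to 1372, 963 to 1460 and 50 to 282 genes, and 0 to 1, 0 to 4, 0 to 1, 4 and 0 to 4 members. The deviations of same-numbered rats had r from -0.19 to 0.27 (18 pairs, 3 over 0.1). Rats with different numbers were not compared in this way, so the check cannot exclude a pairing or a shared batch. With the replicate block 286 genes were called in BN rats and 235 by interaction, and the 4 interaction members stayed at 4.

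Signs turned only where the difference between the NP groups was near 0. With 1 rat left out, Idi1 ranged from -0.11 to 0.082 and Sqle from -0.15 to 0.021. Scaling moved the median of all genes by at most 0.033 (log2). The causes were not tested. The methylation alternatives were not run. Counts of 107 to 905 per member and 3 rats per group limit what small changes can be seen.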

Other observations

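Of 10 listed genes that move cholesterol out of cells, carry it in lipoproteins or control this, 5 had a linked row. With pregnancy in BN rats 3 of these 5, Abca1, Apoe and Apob, were called lower and 0 higher. Of all 14212 genes tested 82 were called lower there and 117 higher. These 3 genes were linked through this comparison among others, so the count is a description. For BN-NP against CD-NP 2 of the 5 were called higher and 2 lower, where 544 of all genes were higher and 647 lower. For BN-P18 against CD-P18 1 was called higher and 2 lower, where 697 of all genes were higher and 668 lower. All 5 were linked through BN-NP against CD-NP, and Abca1, Abcg1 and Apoe also through BN-P18 against CD-P18. The counts in both comparisons are thus descriptions. Abca1, the transporter that loads lipid onto apolipoprotein A-I, had 99.3, 93.3 and 91.4 CPM in CD-NP, 90.6, 94.1 and 88.4 CPM in CD-P18, 61.6, 68.8 and 74.3 CPM in BN-NP and 51.6, 56.2 and 50.5 CPM in BN-P18. It was lower in BN than in CD rats in NP (0.72 of the CD level, edgeR adjusted p = 0.00257) and at P18 (0.58, adjusted p = 4.67e-05), and it fell with pregnancy in BN rats (0.77, adjusted p = 0.0548), a call lost without BN-NP replicate 2 or 3 or BN-P18 replicate 1 or 3. Abcg1, a transporter that passes cholesterol to lipoproteins, had 52.0, 25.5 and 39.5 CPM in CD-NP, 38.9, 40.2 and 45.6 CPM in CD-P18, 18.4, 22.9 and 27.3 CPM in BN-NP and 17.7, 23.8 and 23.4 CPM in BN-P18. It stood at 0.52 of the CD level at P18 (edgeR adjusted p = 0.0166), called in 12 of 12 fits that left out a rat, and at 0.59 in NP (adjusted p = 0.0501), where the groups overlapped and the call was lost without CD-NP replicate 1 or 3 or BN-NP replicate 1 or 2. Apoe, a protein of circulating lipoproteins, had 658, 549 and 513 CPM in BN-NP and 312, 270 and 345 CPM in BN-P18, a fall to 0.54 of its NP level (edgeR adjusted p = 0.0043). Apoe was 2.01-fold higher in BN-NP than in CD-NP (adjusted p = 0.000307). Apob, a structural lipoprotein protein, fell in BN rats from 19.9, 23.2 and 20.5 to 13.0, 7.84 and 10.7 CPM (edgeR adjusted p = 0.097), a call lost in 7 of 12 fits that left out a rat. In CD rats Apoe and Apob were also lower at P18, at 0.81 and 0.63 of their NP level. Neither difference passed there (edgeR adjusted p = 0.209 and 0.230). By interaction edgeR called 0 of these 5 genes, DESeq2 called 1, and 2, Abca1 and Apoe, had an unadjusted p under 0.05 in edgeR, as did 12.3% of all genes tested.

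The oxysterol hydroxylase Cyp7b1, 1 of 5 listed genes of its group with a linked row, was lower in BN than in CD rats, at 0.57 of the CD level in NP and 0.53 at P18 (edgeR adjusted p = 0.00621 and 0.00204). Of 10 listed genes of fatty acid synthesis 2 had a linked row. Gpam, an acyltransferase of triglyceride synthesis, was 1.48-fold higher in BN-P18 than in CD-P18 (edgeR adjusted p = 0.0116), and Acss2, which makes acetyl-CoA from acetate, stood at 0.74 of the CD-P18 level (adjusted p = 0.0264).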
